A study of Bos taurus with 18 samples.

Results

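The last megabase of each of the 29 autosomes was examined in sperm DNA methylomes of 18 Holstein bulls. The members were tiles of 2000 bp that lie within 1 Mb of the largest position listed on the autosome in any bull, and that hold a listed CpG position in at least 9 of the 18 bulls. There were 13492 such tiles among the 14500 tiles of the windows and among 1176978 autosomal tiles passing the same filter, or 1.15% of the latter. They were compared within each bull with the other 1163486 tiles, autosome by autosome, or with tiles pooled over autosomes where classes of listed positions were used. Each bull gave 1 library from washed sperm, made by whole-genome bisulfite sequencing. The labels place bulls in high and low groups. Gestation length (GL) has 4 bulls a group, and the other 4 traits have 3 bulls a group: conception rate of sires (SCR) and of cows (CCR), depth of body (BDE) and calving ease of sires (SCE). Many bulls serve in several traits, and 2 bulls have no trait group. All 18 were fertile, age-matched Holstein bulls without a treatment, whose ages were not used here. No gene annotation of the genome build used, UMD3.1, was at hand, so the sperm label was not checked against marker genes.

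Cattle autosomes are acrocentric: the centromere lies at the start of the numbered sequence, and the last megabase is the side of the telomere of the long arm. DNA near telomeres is known for high GC content, frequent recombination and many CpG sites, while the centromere side holds satellite repeats that are weakly methylated in bull sperm. In mature sperm most of the genome is methylated, and the exceptions are mainly promoters with many CpG sites.

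As a mean over autosomes, methylation of the last megabase was slightly lower than that of the rest, with the lowest level in the last 100 kb, but 16 of 29 autosomes were higher in the last megabase and the sign of the mean changed with the CpG positions compared. The level was 84.1% ± 1.16 (SD, n = 18 bulls) in the last megabase against 85.3% ± 1.14 in the rest, as the mean over autosomes of the mean percent of methylated reads per tile. The difference was -1.19 percentage points ± 0.43 (SD), from -2.22 in bull H08 to -0.63 in bull H06, and it was below 0 in 18 of 18 bulls (two-sided permutation test by sign flips over bulls, p = 2e-05, the smallest that 100000 resamples can give; adjusted p = 3e-05 over 7 within-bull comparisons). With the tiles of all autosomes pooled, the difference was -1.48 points, and within classes of listed positions per tile it was then 2.69 points. At positions listed in all 18 bulls, averaged over autosomes again, it was 6.51 points. The differences of 2.69 and 6.51 points were each above 0 in 18 of 18 bulls (permutation tests, p = 2e-05). The median tile level was 92.5% among members and 92.1% in the rest. These tests measure agreement between bulls and not the spread over autosomes, whose differences ran from -13.4 points on BTA2 to 5.95 points on BTA6. Leaving out 1 autosome at a time gave from -1.44 points without BTA6 to -0.75 points without BTA2. Without the last 100 kb, left out after its low level was seen, the difference was 0.084 points and above 0 in 11 of 18 bulls, given with no test.

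By distance from the end, the mean of the 29 autosomes was 72.1% ± 2.00 (SD over 18 bulls) in the last 100 kb. It was 80.6% ± 1.58 from 100 to 200 kb, 83.9% ± 1.14 from 200 to 300 kb and 85.1% ± 1.22 from 300 to 400 kb. From 400 kb inward the 100-kb bins lay between 85.6% and 86.6%. Just inside the limit of the window, from 900 to 1000 kb, the mean was 86.6%, and just outside it, from 1000 to 1100 kb, it was 86.8%. From 1 to 2 Mb and from 2 to 5 Mb the level was 85.4% and 86.1%. The share of tiles below 20% methylation was 8% in the last 100 kb, 3.11% in the next bin, 2.68% in the one after, and between 1.19% and 1.76% in the bins from 300 to 1000 kb. The rise in mean level from 100 to 400 kb came from BTA2, BTA4, BTA7 and BTA23. Without these autosomes, which were left out for their low ends, the mean was 77.8% in the last 100 kb. It was then 86.1% from 100 to 200 kb and 86.5% in each of the next bins up to 400 kb, given with no test.

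**Figure D1:**
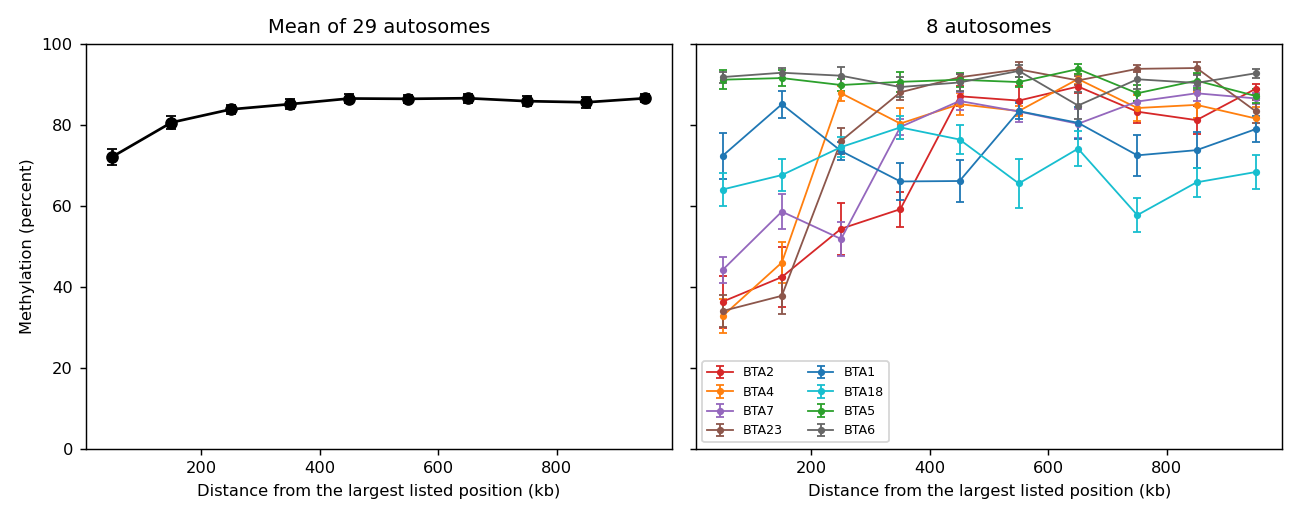
Methylation in percent against distance in kb from the largest listed position, in bins of 100 kb. Points are means over 18 bulls and bars are SDs over bulls, for the mean of 29 autosomes on the left and for 8 autosomes on the right. The mean is 72.1% in the last 100 kb and 86.6% between 900 and 1000 kb, and BTA2, BTA4, BTA7 and BTA23 are lowest next to the end while BTA5 and BTA6 are above 90% there.

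The last 100 kb were lower than the 100 to 1000 kb before them by 13.3 points on average, with a fall in all 18 bulls. On 22 autosomes the last 100 kb were lower on average, and on 16 of them in every bull. On 7 autosomes they were higher, and on BTA29 in every bull. These values describe a window chosen after seeing the profile and carry no test.

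Mean methylation of the last 100 kb was below 50% on 4 autosomes. On BTA4 it ranged from 24% to 42.1% over the 18 bulls with a median of 32.7%, and 21 of its 45 tiles lay below 20%. BTA23 ranged from 28.4% to 44.2% and BTA2 from 26.8% to 49.9%. On BTA7 the last 100 kb ranged from 37.6% to 49.2%. No bull of these 4 autosomes reached the lowest bull of the 100 to 1000 kb farther in. The depressed stretch was not equally long on all of them. BTA4 rose from 46.0% between 100 and 200 kb to 87.8% in the next bin. BTA23 rose from 37.8% to 76.1% between the same bins. BTA7 was still at 51.8% between 200 and 300 kb and reached 79.5% in the bin after. BTA2 climbed more slowly, through 42.4%, 54.4% and 59.2%, and reached 87.1% between 400 and 500 kb.

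On 5 autosomes the last 100 kb had over 90% methylation. They were BTA5 at 91.2%, BTA6 at 91.8%, BTA13 at 91.1%, BTA26 at 91.0% and BTA29 at 92.4%. BTA6 held between 84.8% and 93.3% in all 10 bins of its last megabase.

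**Figure D2:**
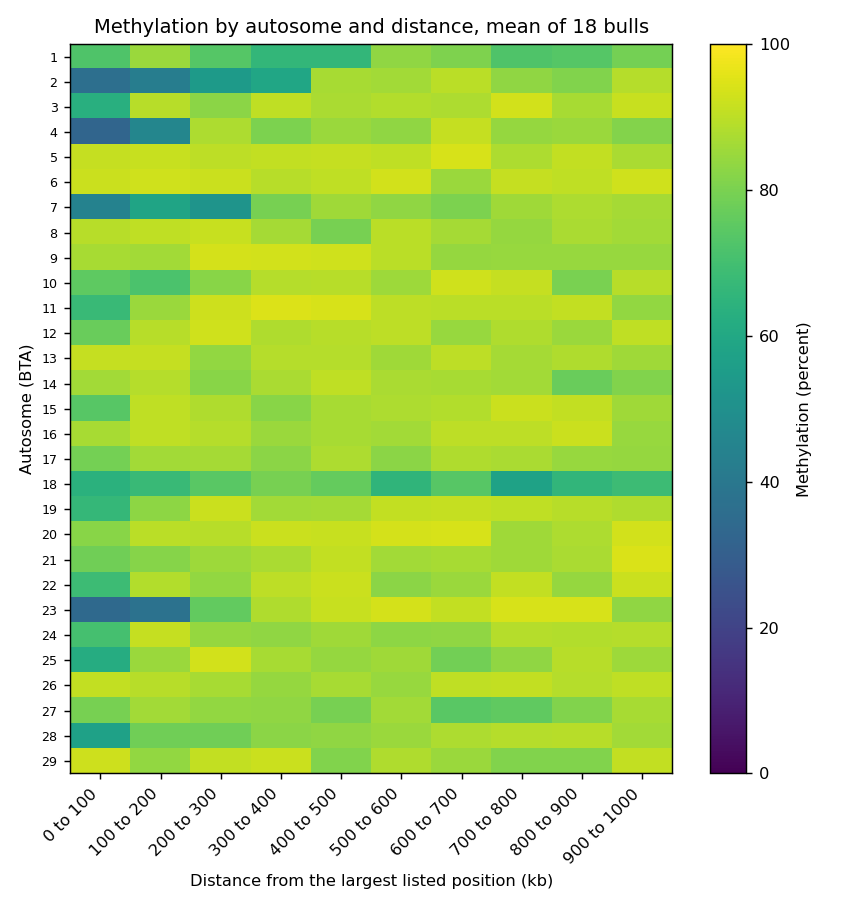
Mean methylation in percent, over 18 bulls, of the member tiles of each autosome (rows) in 10 bins of 100 kb by distance from the largest listed position (columns). The dark cells at the left are the last 200 to 400 kb of BTA2, BTA4, BTA7 and BTA23, while BTA18 is at 57.7% to 79.4% across its whole last megabase.

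Read depth moved with the low level at the end. In the 6 bulls with listed coverage, positions of the last 100 kb had 15.1 reads on average and 5.67% of them had more than 30 reads. Between 100 and 1000 kb the values were 12.1 reads and 0.685%. Of the 16 autosomes that were lower at the end in every bull, 13 had more than 1% of end positions above 30 reads. Of the other 13 autosomes 2 did. The share above 30 reads reached 29.6% on BTA11, 26.3% on BTA2, 21.5% on BTA23 and 18% on BTA4. On BTA7 it was listed at 0, with 44.8% methylation at its end. Across the 29 autosomes, the level of the last 100 kb minus that of the 100 to 1000 kb farther in had, with the rise in that share, Pearson's r = -0.68 and Spearman's rho = -0.79, as a description over autosomes that come from the same libraries. When positions above 30 reads were left out, the level in these 6 bulls was 72.9% in the last 100 kb and 85.9% between 100 and 1000 kb. Depth is unknown in the other 12 bulls, and the cause of the low level was not tested. The number of distinct listed positions per tile was lower at the end, at 47.4 against 63.4.

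The deviation of the whole last megabase differed strongly among autosomes. It was lower than the rest on 13 autosomes and higher on 16. By permutation tests over 18 bulls with adjustment over 29 autosomes, 12 were lower and 14 higher, and BTA3, BTA17 and BTA25 did not pass (adjusted p between 0.201 and 0.814). A pass shows that the bulls agree on the difference. Whether other windows of 1 Mb would differ as much from the rest was not tested. On 10 autosomes the last megabase was lower in every bull, and on 9 it was higher in every bull. The 3 lowest differences were on BTA2, BTA18 and BTA1. BTA2 had 73.1% ± 2.82 in its last megabase against 86.5% in its rest, a difference of -13.4 points ± 2.24 (SD, n = 18). BTA18 had 69.4% ± 2.91 against 82.4%, a difference of -13.0 points ± 2.37. BTA1 had 75.2% ± 3.32 against 85.5%, a difference of -10.2 points ± 2.88. In these 3 autosomes every bull was lower in the last megabase. BTA4 and BTA7 followed at -9.99 and -9.51 points, and the next, BTA23, was at -3.34.

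The 3 highest differences were on BTA6, BTA5 and BTA29. BTA6 had 90.8% ± 1.38 against 84.9%, a difference of 5.95 points ± 0.88. BTA5 was 5.65 points ± 0.91 higher and BTA29 was 3.64 points ± 1.70 higher, and each was higher in 18 of 18 bulls. From 1 to 2 Mb and from 2 to 5 Mb, BTA29 had 89.1% and 90.9%, both above the 86.6% of its last megabase. BTA5 had 89.5% and 88.5% there against 90.5%, and BTA6 had 81.3% and 86.2% against 90.8%. Without BTA1, BTA2, BTA4, BTA7 and BTA18, a choice made after seeing the values, the mean difference over the other 24 autosomes was 0.90 points and above 0 in 17 of 18 bulls. These 5 autosomes were left out because they were the lowest, so this value is a description with no test.

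**Figure D3:**
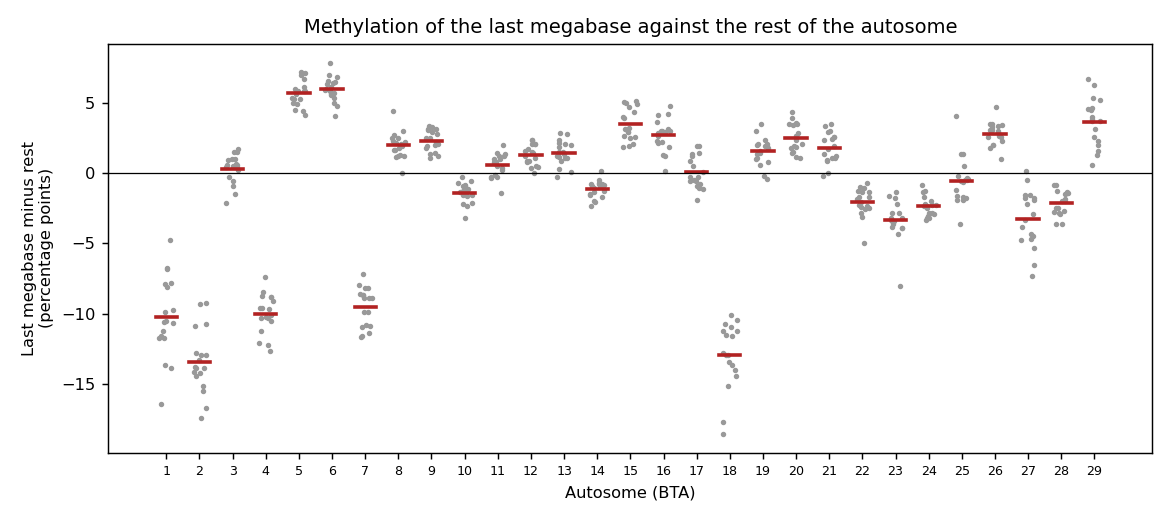
Difference in methylation between the last megabase and the rest of the same autosome, in percentage points, for the 29 autosomes. Grey points are the 18 bulls and red lines their means. BTA1, BTA2, BTA4, BTA7 and BTA18 lie between -13.4 and -9.51 on average, and BTA5 and BTA6 at 5.65 and 5.95.

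BTA18 and BTA1 differed in form from the autosomes with a short depressed end. On BTA18 the 10 bins ranged from 57.7% (700 to 800 kb) to 79.4% (300 to 400 kb), with 64.1% in the last 100 kb. In the 6 bulls with listed coverage no position of its last megabase had more than 30 reads. Low methylation continued inward on BTA18, with 72.6% from 1 to 2 Mb and 64.9% from 2 to 5 Mb. On BTA1 the level was 80.6% from 1 to 2 Mb and 86.5% from 2 to 5 Mb. BTA18 held 37 tiles below 20% and 203 tiles from 20% to 80% among 489. On BTA1 the bins ranged from 66.0% to 85.1%, and only 8 of 494 tiles were below 20%, with 206 from 20% to 80%.

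No annotation of UMD3.1 was used, so genes were not placed on tiles. As background, in the RefSeq gene table of another assembly, ARS-UCD2.0, the last 2 protein-coding genes with a name are listed as follows, chosen after the values of their autosomes were seen. BTA2 ends with HSPB7, a small heat shock protein of heart muscle, and SRARP. BTA4 ends with DYNC2I1, a subunit of the dynein that moves cargo within cilia, and VIPR2, a receptor of vasoactive intestinal peptide. BTA7 ends with CAMK4, a calcium-dependent kinase, and STARD4, which carries cholesterol. BTA23 ends with IRF4, a transcription factor of lymphocytes, and the phosphatase gene DUSP22. BTA5, with 91.2% in its last 100 kb, closes with ACR, which encodes the sperm protease acrosin, and RABL2B. Of the other autosomes above 90% there, BTA6 closes with TMEM271 and PIGG and BTA13 with DOK5 and CBLN4. BTA26 closes with LRRC27 and PWWP2B, and BTA29 with B4GALNT4 and IFITM1. Whether these genes lie in the tiles described here was not tested.

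The last megabases listed more CpG positions per tile. A bull listed 13.7 positions per member tile on average, with a spread from 2.32 in H01 to 40.9 in H08, against 9.28 in the rest. The log2 ratio was 0.50 ± 0.40 (SD, n = 18), a ratio of 1.42, and was above 0 in 16 of 18 bulls (permutation test by sign flips, p = 0.0001, adjusted p = 0.00014). Counted over all bulls, the median member tile held 58 distinct listed positions and the median tile of the rest 28. The mean number was higher in the last megabase on 27 autosomes and lower on BTA18 and BTA27. Positions were not listed more evenly: 10.7% of the distinct positions of the last megabases were listed in 9 or more bulls, against 14.3% in the rest. Positions listed in all 18 bulls made up 0.336% and 0.286%.

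The comparison of levels depended on the number of distinct listed positions per tile, with the last megabase lower in 4 of 5 classes and higher in the densest. Within each class the tiles of all autosomes were pooled, so that long autosomes weigh more in the rest. In tiles with more than 80 positions the level was 84.3% ± 1.09 in the last megabase (3408 tiles) and 66.8% ± 1.43 in the rest (43338 tiles). This difference of 17.6 points was above 0 in 18 of 18 bulls (permutation test, p = 6e-05, adjusted p = 7e-05 over 5 classes). In tiles with 1 to 10 positions the order was opposite, at 69.2% against 82.6%, and it was opposite too in tiles with 11 to 20 positions (78.3% against 85.3%) and 21 to 40 positions (82.2% against 87.2%). These 3 differences were below 0 in all 18 bulls. From 41 to 80 positions the levels were 85.4% and 85.7%, a difference of -0.34 points that was above 0 in 3 of 18 bulls (permutation test, p = 0.00032, adjusted p = 0.00032). This class held 46.6% of the members. On the 24 autosomes other than BTA1, BTA2, BTA4, BTA7 and BTA18, given as a description with no test, the difference was -7.04 points in tiles with 1 to 10 positions, -2.43 with 11 to 20, -1.89 with 21 to 40, 1.20 with 41 to 80 and 17.7 with more than 80, so that the 41 to 80 class had the other sign there. Averaged with the class sizes of the last megabases, where the densest class turned the sign, the classes gave the difference of 2.69 points printed above. The positions listed in all 18 bulls, which gave 6.51 points, left 299 member tiles.

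Tiles below 20% methylation were a smaller share of the dense tiles in the last megabases than in the rest. Dense here means many listed positions, since the CpG sites of the tiles were not counted. Among tiles with more than 80 positions, 5.40% were below 20% in the last megabase and 23.9% in the rest. Dense member tiles were higher than dense tiles of the rest on 25 autosomes. The exceptions were BTA18, where 28 dense member tiles had 32.9% against 70.7%, BTA27 with 4 such tiles, BTA1 and BTA28. On BTA8 the dense tiles had 86.5% in the last megabase and 43.4% elsewhere.

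**Figure D4:**
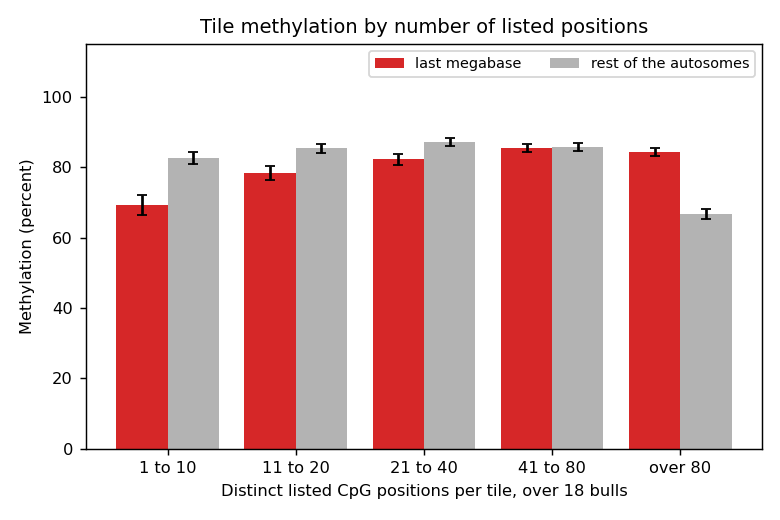
Mean methylation in percent of tiles in the last megabase (red) and in the rest of the autosomes (grey), by the number of distinct CpG positions listed in the tile over 18 bulls. Bars are means and error bars SDs over 18 bulls, with the tiles of all autosomes pooled. With more than 80 positions the levels are 84.3% and 66.8%, and with 1 to 10 positions they are 69.2% and 82.6%.

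Tile classes shifted by small amounts. In a bull, 3.61% ± 0.42 of listed member tiles were below 20% against 2.94% ± 0.36 of the rest, a difference of 0.67 points in 18 of 18 bulls (permutation test, p = 2e-05, adjusted p = 3e-05). The sign was opposite in all 18 bulls with tiles listed in all 18 files (-0.43 points), at positions listed in all 18 bulls (-11.9 points) and within classes of listed positions (-4.41 points; permutation tests, p = 2e-05 for each). The share from 20% to 80% was 18.2% against 17.4%, higher in 15 of 18 bulls (permutation test, p = 0.00034, adjusted p = 0.0004). Tiles above 80% made up 78.2% and 79.6%, and were fewer in the last megabase in all 18 bulls (permutation test, p = 2e-05, adjusted p = 3e-05). The difference in the share below 20% was 0.43 points without BTA2. It was 0.049 points without the last 100 kb and -0.078 points on the 24 autosomes left above, both left out after seeing the data and given with no test.

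By the mean over bulls, 334 member tiles lay below 20% (2.48% of members, against 1.98% of tiles of the rest), 2597 from 20% to 80% and 10561 above 80%. BTA2, BTA4, BTA7, BTA18 and BTA23, the autosomes with the most such tiles, held 153 of the 334, or 45.8%. There were 44 runs of at least 2 adjacent member tiles below 20%, on 17 autosomes, given without a count of such runs in the rest. The longest had 7 tiles and occurred on 2 autosomes. On BTA3 the run at chr3:121414001-121428000 (UMD3.1) ended 2 kb before the largest listed position and had a mean of 11.2% ± 2.12 (SD, n = 18), from 8.70% to 17.4% over the bulls, with 359 distinct positions. On BTA7 the run at chr7:112600001-112614000 lay 24 kb from the end and had 16.1% ± 2.78, from 11.7% to 22.0%, with 231 distinct positions. Runs were chosen by the mean over these same bulls, and on BTA7 the highest bull was above 20%. BTA4 held the next longest runs, of 4 tiles each, at chr4:120792001-120800000 with 9.65% ± 2.95 and at chr4:120820001-120828000 with 14.2% ± 1.75.

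The first megabase, on the centromere side, gave the largest contrast. Its 13130 tiles had 56.6% ± 2.21 methylation, so the last megabase was higher by 27.5 points ± 1.26 (SD, n = 18), from 25.4 to 29.4 over the bulls (permutation test, p = 2e-05, adjusted p = 3e-05). The last megabase was higher in every bull on 25 of 29 autosomes. On BTA19 it had 86.5% against 24.7% in the first megabase, and on BTA15 86.7% against 30.5%. On BTA1 the order was opposite in all 18 bulls, at 75.2% against 85.3%. BTA27, BTA25 and BTA11 were higher in the last megabase in 3, 6 and 15 of the 18 bulls.

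The comparison of the spread between bulls with that of the rest depended on the filter and the window. The mean absolute deviation of a bull's tile from the mean of the other bulls was 6.08 points ± 1.0 in the last megabase and 6.16 points ± 0.96 in the rest, a difference of -0.080 points ± 0.50 (SD, n = 18) that was below 0 in 10 of 18 bulls (permutation test, p = 0.503, adjusted p = 0.503). The deviation was larger in the last megabase within classes of listed positions, by 0.47 points and in 17 of 18 bulls (permutation test, p = 6e-05). With at least 3 positions per tile it was larger by 0.33 points and in 15 of 18 bulls (permutation test, p = 0.00012), and at positions listed in all 18 bulls by 0.76 points and in 18 of 18 bulls (permutation test, p = 2e-05). In a window of 2000000 bp the difference was -0.34 points and above 0 in 4 of 18 bulls (permutation test, p = 0.0091). The levels of the last megabase ranged from 80.7% in L06 to 86.1% in H06. L06 was also the lowest bull in the rest, at 81.9%. Bulls with more listed positions had a larger shortfall by Pearson's r = -0.61 (permutation p = 0.0104, adjusted p = 0.0415 over 4 relations) but not by Spearman's rho = -0.40 (permutation p = 0.0964, adjusted p = 0.23). Without H08 and L06, the bulls farthest from the median number, r was -0.46.

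The 5 tiles with the largest SD over bulls, among 5435 member tiles listed in all 18 bulls, lay on BTA4, BTA22, BTA14, BTA19 and BTA8. The tile chr4:120008001-120010000 had 1.43% in the lowest bull, a median of 77.9% and 95.7% in the highest bull, with 4 bulls below 20% and 8 above 80% (SD 35.0 points). The tile chr22:61064001-61066000 ranged from 0.568% to 97.0% with a median of 91.0%, and chr14:84444001-84446000 ranged from 0% to 100% with a median of 19%. The other two, chr19:63280001-63282000 and chr8:112524001-112526000, ranged from 0% to 96.1% and from 1.54% to 100%. In each of the 5 tiles a bull listed as few as 1 or 2 positions, while others listed between 24 and 81, so bulls were partly compared at different CpG sites.

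The trait groups were compared in the same tiles to ask whether chromosome ends differed between bulls of high and low merit. For GL, 9477 member tiles had a position in each of the 8 bulls, and 1084 of them, or 11.4%, were called at q under 0.01 and a difference over 5 points by logistic regression on summed reads without overdispersion. Over all 593044 tiles tested the share called was 8.75%. In the high GL bulls 538 called members were lower (5.68% of members, against 3.75% of all tiles) and 546 higher (5.76% against 4.99%). The share was above that of the rest on 26 autosomes and below it on 3. In groups of tiles with as many listed positions in the 8 bulls, the rest of the autosomes had a share of 8.94%. With an F test that allows for spread between bulls, and with limma, 0 member tiles and 0% of all tiles were called for GL at an adjusted p under 0.01. An unadjusted p under 0.05 with a difference over 5 points was found for 322 members by an F test (3.40% of members, against 3.47% of all tiles) and for 366 by limma (3.86% against 3.59%). When only CpG sites that both groups list were compared (matched positions), 160 of the 1084, or 14.8%, were called in the same direction, against 17.4% of all called tiles.

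By the same logistic regression, the shares called for the other traits were also above those of all tiles. For SCE 8.54% of 6428 member tiles were called against 6.18% of all tiles, for BDE 10.4% of 8835 against 7.57%, and for SCR 11.9% of 6584 against 8.68%. The SCR shares rest on listed reads, those of the other traits on 10 reads per position. With 10 reads per position SCR had 9.04% against 6.05%. For CCR 14% of 9358 member tiles were called against 11.1% of all tiles. Of the CCR members called, 986 were lower in high CCR bulls (10.5% of members, against 8.48% of all tiles) and 326 higher (3.48% against 2.58%). This balance depended on single bulls, with 664 lower and 455 higher without H06, 772 and 422 without L06, and 1414 and 291 without H08. The shares called were then 11.6%, 12.7% and 18.2% of members against 8.53%, 8.79% and 16.9% of all tiles. The calls over all tiles were not split by direction in these runs. Compared with autosomal tiles of as many listed positions, the shares were 6.90% for SCE, 8.17% for BDE, 12.1% for CCR and 9.37% for SCR in the rest. The 5 comparisons share bulls, and 0 member tiles and 0% of all tiles were called for SCE, BDE, CCR and SCR by an F test or by limma. An unadjusted p under 0.05 with a difference over 5 points was found by an F test for 163, 263, 324 and 191 members in SCE, BDE, CCR and SCR, or 2.54%, 2.98%, 3.46% and 2.90% of members against 2.46%, 2.81%, 2.89% and 2.72% of all tiles. By limma it was found for 208, 346, 384 and 203 members, or 3.24%, 3.92%, 4.10% and 3.08% against 3.3%, 3.84%, 3.61% and 3.4% of all tiles, so that the limma shares of SCE and SCR were below those of all tiles. Leaving out H01, which lists the fewest positions, raised the calls among members from 549 to 957 for SCE and from 782 to 1322 for SCR, with 9955 and 10208 member tiles tested. The shares were then 9.61% of members against 6.80% of all tiles for SCE and 13% against 9.38% for SCR. CCR includes L06, the bull lowest at the ends and elsewhere, in its high group.

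In 146 of the 1084 GL calls the groups did not overlap, or 1.54% of the members tested, against 1.38% of all tiles. As a share of the called tiles this was 13.5% of members and 15.8% of all tiles. The 3 largest losses were on BTA8, BTA5 and BTA8. At chr8:113156001-113158000 (tile A) the high GL bulls had 18.1%, 21.1%, 49.5% and 38.6%, and the low GL bulls had 85.3%, 86.8%, 77.8% and 100%. The groups were far apart, yet the difference of -51.6 points in summed reads was -8.40 points at the 17 matched positions. At chr5:120972001-120974000 (tile B) the high GL bulls had 87.6%, 35.7%, 34.9% and 59.3% and the low GL bulls 90%, 95.8%, 99.4% and 97.0%. The difference was -47.2 points in summed reads and -3.89 points at 12 matched positions. The third loss, tile C, was the tile of BTA8 already described for its SD, with -41.8 points and -2.64 points at 25 matched positions.

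The 3 largest gains were on BTA2, BTA2 and BTA16. At chr2:136170001-136172000 (tile D) the high GL bulls had 88.2%, 93.5%, 69.1% and 51.8%, and the low GL bulls 2.50%, 45.8%, 18.2% and 48.3%. The difference in summed reads was 41.6 points, and 0.373 points at 4 matched positions. At chr2:136360001-136362000 (tile E) the high GL bulls ranged from 55.9% to 95.0% and the low GL bulls from 0% to 37.2%. That difference of 34.5 points was -1.67 points at 14 matched positions. At chr16:81484001-81486000 (tile F) it was 28.8 points in summed reads and 0.550 points at 11 matched positions. In each of the 6 tiles the difference was smaller in size at matched positions. A position is matched when any bull of each group lists it, so these values may rest on only some of the bulls. The cause was not tested. All 6 had a limma adjusted p of 0.98. They were selected for non-overlap, so their values are a description.

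**Figure D5:**
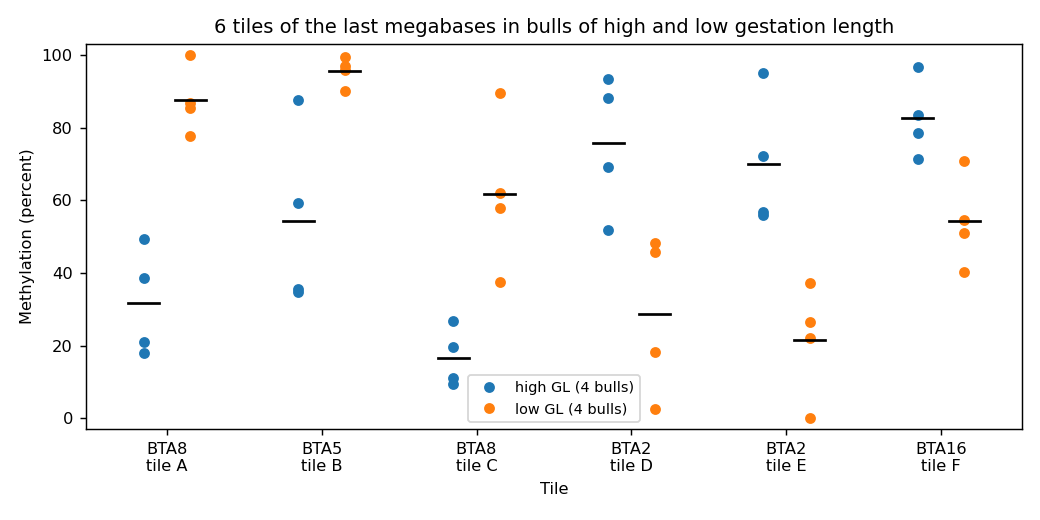
Methylation in percent of tiles A to F of the last megabases in 4 bulls of high GL (blue) and 4 of low GL (orange). Points are bulls and black lines group means. High GL bulls lie below low GL bulls in tiles A to C and above them in tiles D to F, where values rest on as few as 1 listed position per bull in tile B and 32 at most.

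The level of the last megabase as a whole did not pass a test for any trait. High GL bulls had 84.3% ± 1.06 (SD, n = 4) and low GL bulls 83.8% ± 0.54 (SD, n = 4), a difference of 0.52 points (exact permutation test, two-sided, p = 0.514, adjusted p = 0.643 over 5 traits). The largest difference was for CCR, with 82.8% ± 1.84 (SD, n = 3) in high and 84.7% ± 1.25 (SD, n = 3) in low bulls (exact permutation test, p = 0.3, adjusted p = 0.643). This rank rested on the high CCR bull L06, without which the difference of -1.92 points was -0.86 points. For SCE, BDE and SCR the differences were -0.25, 0.94 and -0.56 points, with adjusted p of 0.8, 0.643 and 0.643 in exact permutation tests. With 3 bulls a group the smallest p possible is 0.1, so the 4 smaller comparisons could not reach 0.05. The difference between the last megabase and the rest did not pass a test between groups either: it was -1.30 points in high and -1.12 points in low GL bulls (exact permutation test, p = 0.6, adjusted p = 0.9), and the adjusted p was 0.9 for every trait.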

How the data were processed

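The authors trimmed reads with Trim Galore 0.4.0, checked them with FastQC 0.11.2, mapped them to UMD3.1 with Bowtie2 and extracted methylation with Bismark 0.14.5. The authors deposited methylation calls of CpG positions with at least 10 reads, as percent methylated, in 18 bulls. For 6 bulls the deposited values also hold counts of reads per position, from 10 to 100. For the other 12 bulls depth is unknown, although counts had been assumed for all, so 10 reads per position were used for GL, SCE, BDE and CCR and listed counts for SCR. The bulls listed 2858992 to 22048556 positions, which limits precision most in H01. The unmethylated percent was not used.

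A bull's tile level was the mean percent of its listed positions. Levels were averaged over tiles, then autosomes, and compared within bulls by sign-flip permutation (100000 resamples) with Benjamini-Hochberg adjustment. Comparisons within classes of listed positions pooled the tiles of all autosomes instead. Traits were compared by logistic regression (q by a simplified SLIM method over all tiles), by limma 3.58.1 (R 4.3.3; log2 ratio of methylated to unmethylated reads from the deposited values, 1 read added to each) and by exact permutation. Python 3.11.15, NumPy 2.4.6, SciPy 1.17.1 and matplotlib 3.10.9 were used. Tests were tested on simulated data.

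Named tiles were the 3 lowest and 3 highest autosomes, the 3 largest losses and gains among GL calls without overlap, the 5 tiles with the largest SD among those listed in 18 bulls, and the longest runs below 20%. Members and lists were chosen with earlier results of these data known. Each bull is a single library. No paired analysis was possible because the high and low bulls are different animals and no label pairs them.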

Additional observations from a re-analysis of the deposited data

Results flagged for a closer look

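In 24 sets of 4 GL bulls examined, 2 had a bull set apart from the other three by more than Dixon's 95% limit, and chance alone flags about 1 in 20 such sets. On BTA1 the high GL bull H03 had a difference between the last megabase and the rest of -16.4 percentage points, with a gap to the nearest bull of 0.872 of the range of its group. On BTA6 the high GL bull H09 had 7.84 points, with a gap of 0.902 of the range.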

How the results depend on the processing

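The last megabase stayed more methylated than the first under every alternative run, and the count of autosomes that pass, 26, was 27 to 29 with other windows or filters, added after seeing the data. The direction was the same on 23 of 29 autosomes in a window of 500000 bp (15 called lower and 12 higher, against 12 and 14 as reported), on 25 in a window of 2000000 bp and on 26 with tiles listed in all 18 files. The difference between the last megabase and the rest, negative as reported, kept its sign under 15 of 19 alternatives. Several of the 15 kept the same member tiles and changed only the bulls or the weighting. The difference was -3.46 points in 500000 bp and -0.51 points in 2000000 bp (above 0 in 2 bulls). With the first megabase left out of the rest, the difference was -1.51 points. It was 2.69 points within classes of listed positions, 6.51 points at positions listed in all 18 bulls, and, in comparisons added after seeing the data, 0.90 points without BTA1, BTA2, BTA4, BTA7 and BTA18 and 0.084 points without the last 100 kb. The difference in the share of tiles below 20% was -4.41 points within classes, -11.9 points at positions listed in all 18 bulls, -0.43 points with tiles listed in all 18 files, -0.078 points without the same 5 autosomes and 0.049 points without the last 100 kb, against 1.65 points in a window of 500000 bp and 0.39 in one of 2000000 bp. The log2 ratio of listed positions was 1.15 for positions listed in all 18 bulls, as a ratio over all tiles, and 0.42 in the 6 bulls with listed coverage (exact permutation test, p = 0.0625, where the smallest possible is 0.03125). The difference in deviation between bulls, -0.080 points as reported, was 0.14 points with tiles listed in all 18 files, 0.33 with at least 3 positions per tile, 0.22 in a window of 500000 bp, 0.76 at positions listed in all 18 bulls and 0.47 within classes, and it was -0.34 points in a window of 2000000 bp. The causes were not tested.

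Counts of called member tiles depended on the test. An F test with overdispersion and limma called 0 member tiles and 0% of all tiles for GL, SCE, BDE, CCR and SCR. At matched positions the counts were 244 for GL, 118 for SCE, 185 for BDE, 506 for CCR and 204 for SCR, or 2.58%, 1.84%, 2.11%, 5.42% and 3.11% of members against 2.19%, 1.31%, 1.60%, 4.40% and 2.52% of all tiles. A difference over 10 points left 597 tiles for GL, 865 for CCR and 473 for SCR (6.30%, 9.24% and 7.18% against 4.90%, 7.09% and 5.64% of all tiles), and at least 3 positions per tile, with fewer tiles tested, left 267 for SCE, 577 for BDE, 861 for CCR and 369 for SCR (8.87%, 10.4%, 13.8% and 11.7% against 6.63%, 8.15%, 11.4% and 9.33%). Leaving out each bull in turn gave 960 to 1194 tiles for GL, 586 to 957 for SCE, 892 to 1034 for BDE, 1119 to 1705 for CCR and 763 to 1322 for SCR. The shares of members ranged from 10.1% to 12.5% against, over all tiles, 7.84% to 9.12% for GL, 9.02% to 9.71% against 6.17% to 6.80% for SCE, 9.78% to 10.6% against 6.93% to 7.79% for BDE, 11.6% to 18.2% against 8.53% to 16.9% for CCR and 11.5% to 13.8% against 8.47% to 9.38% for SCR. The highest SCE and SCR counts came from leaving out H01, which lists fewest positions.

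For the level of the last megabase in SCE, BDE, CCR and SCR the smallest possible p is 0.1 by the exact permutation test, so a failure to pass says nothing of stability. Leaving out each bull gave 0.017 to 0.81 points for GL, 0.45 to 1.48 for BDE, -2.54 to -0.86 for CCR and -1.07 to -0.094 for SCR. For SCE it gave -0.82 to 0.41, with the sign changed without H06. Relative to the rest of the same bull the differences were -0.17 points for GL and -0.071 points for BDE. No paired analysis was possible because the high and low bulls are different animals and no label pairs them.

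Depth limits these results, since 12 bulls list no read counts and few positions are listed in all bulls.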
